A study of Mus musculus with 6 samples.

Results

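Dystroglycan and the enzymes that build its laminin-binding glycan were examined in the mammary gland of mice with an Elf5 knockout (KO) and of wild-type controls, with whole glands as the source of RNA. The members are Dag1, which encodes dystroglycan, and the glycosyltransferase genes Pomt1, Pomt2, Pomgnt1 and Large2. All probe sets that the array's gene annotation assigned to 1 of these symbols alone were taken, which gave 9 probe sets of 34945, for 5 genes of 18193. Dag1 had 4, Pomt2 had 2 and the other genes 1 each. The genes were chosen with results of this comparison known, among them the fall of Large2, so their group differences are a description and support nothing by themselves.

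RNA of 3 wild-type and 3 Elf5 KO animals was hybridised to 1 Affymetrix mouse expression array each. The sample labels place the glands of both groups at day 17 of pregnancy, whereas the series' design text names day 1 of lactation. The sources used here give neither the strain and age of the mice nor how, and in which cells, Elf5 was disrupted. Values are signals on a linear scale, which can be compared between arrays for a given probe set but not between probe sets. Differences are Elf5 KO minus wild type on the scale of log2(signal + 16), with limma's standard error (SE) and 3 arrays per group; they understate the change of dim genes. Where values of whole RNA from a gland differ, fewer cells of a type and less RNA per cell cannot be told apart.

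Dystroglycan is made as a single precursor that is cleaved into an extracellular alpha subunit and a transmembrane beta subunit, which links to dystrophin or utrophin inside the cell. The alpha subunit binds laminin G domains through a long sugar chain. The complex of Pomt1 and Pomt2 starts this chain by attaching mannose in the endoplasmic reticulum, and Large2 ends it with repeats of xylose and glucuronic acid that laminin binds. Pomgnt1 adds N-acetylglucosamine to the O-linked mannose in the Golgi. In mammary epithelium, laminin in the basement membrane anchors the cells through dystroglycan and integrins and supports polarity and milk gene expression.

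Elf5, an ETS transcription factor of luminal cells, was lower in each KO array than in each wild-type array. For its brighter probe set the wild-type signals were 12011, 8044 and 7244 and the KO signals 5616, 4361 and 3128 (arrays in the order of their replicate numbers, as throughout). It is not known whether its probes overlap the disruption, so these signals may include RNA from the altered allele. RNA quality was uneven too. Gapdh controls at the 3' and the 5' end give a signal ratio that is low for intact RNA. The wild-type arrays had 0.833 to 1.09 and KO array 1 had 0.802, but KO arrays 2 and 3 had 3.89 and 13.6. By the same ratio of the Actb controls only KO array 3 stood out. It was 1.20 to 2.04 in wild type and 1.58, 1.87 and 21.0 in KO arrays 1, 2 and 3. KO array 2 was thus set apart by the Gapdh control alone. Values over the 4 arrays with a Gapdh ratio under 2 ("low-ratio arrays") are given beside the results. They hold a single KO array, whose spread the fit takes from the wild type, so they do not measure the spread between KO animals. The milk protein genes Csn2, Wap and Lalba had lower means in the KO, by differences of -0.68, -0.51 and -1.33, but the groups overlapped: the summed signal of 7 luminal milk cell markers was 48607 to 123250 in wild type and 39702 to 59483 in the KO, and none of the 7 passed limma's threshold. That list includes Elf5 itself, the disrupted gene, so its sum is not independent of the genotype. Within the list the luminal keratins Krt8 and Krt18 had higher means, with differences of 0.27 and 0.45. Csn2 gave signals of 7330 to 27414 over the 6 arrays. Summed signals of 7 myoepithelial markers were 13016 to 17365 in wild type against 10171 to 14756 for the KO, and those of 5 macrophage markers, all with a higher mean, 3000 to 4513 against 6114 to 10431. None of the myoepithelial markers and 1 of the macrophage markers passed limma's threshold.

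Among the 5 genes, the groups of Large2, Pomgnt1 and Pomt2 (at its brighter probe set) did not overlap, all with lower KO values, as was seen for 10.6% of the 10916 genes tested. Dag1 and Pomt1 overlapped between the groups. Large2 alone passed the threshold of limma's fit, an adjusted p of 0.05, which 1.24% of genes passed in either direction and 0.11% in the downward one. Since the members were chosen from this comparison, nothing is read from these counts.

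Dag1 did not differ between the groups beyond the spread between arrays. Its brightest probe set, 1426778_at, gave wild-type signals of 1014, 1004 and 893 and KO signals of 1029, 1673 and 589. The wild-type arrays lay close together, and KO array 1 lay just above them; KO array 2 was far above and KO array 3 below all of them. The difference was 0.05 ± 0.38 (SE), with a wild-type spread of 0.10 and a KO spread of 0.74 (SD, n = 3).

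The other Dag1 probe sets did not repeat that pattern. Probe set 1426779_x_at gave wild-type signals of 358, 430 and 194 and KO signals of 630, 259 and 69.0. For 1423872_a_at the wild-type signals were 298, 266 and 130 and the KO signals 351, 214 and 83.7. In both, KO array 1 was the highest of the 6 arrays and KO array 3 the lowest. Probe set 1456131_x_at gave 406, 267 and 175 in wild type, and the KO signals were 317, 136 and 40. Here KO array 1 lay within the wild-type range and the other KO arrays below it. The suffixes _a_at and _x_at mark probes that can match several transcripts of a gene or related sequences. From KO array 1 to KO array 3, in the order of the Gapdh ratio, these 3 probe sets dropped to 10.9%, 23.8% and 12.6% of the KO array 1 signal, against 57.2% for 1426778_at. Their group differences were -0.40 ± 0.66, -0.21 ± 0.51 and -1.01 ± 0.61 (SE). In the low-ratio arrays all of them were positive, at 0.98, 0.65 and 0.23, and 1426778_at differed by 0.09. Averaging the 4 probe sets gave a Dag1 difference of -0.39 in place of 0.05. The direction of Dag1 thus depended on the probe set and on the arrays included. At 1426778_at it was -0.31 without KO array 2 and 0.43 without KO array 3. The other 3 probe sets were also lowest in array 3 within the wild type, where no Gapdh ratio reached 2. What part the Gapdh ratio had in these values was not tested. The sources used here do not place the probe sets along the transcript.

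**Figure D1:**
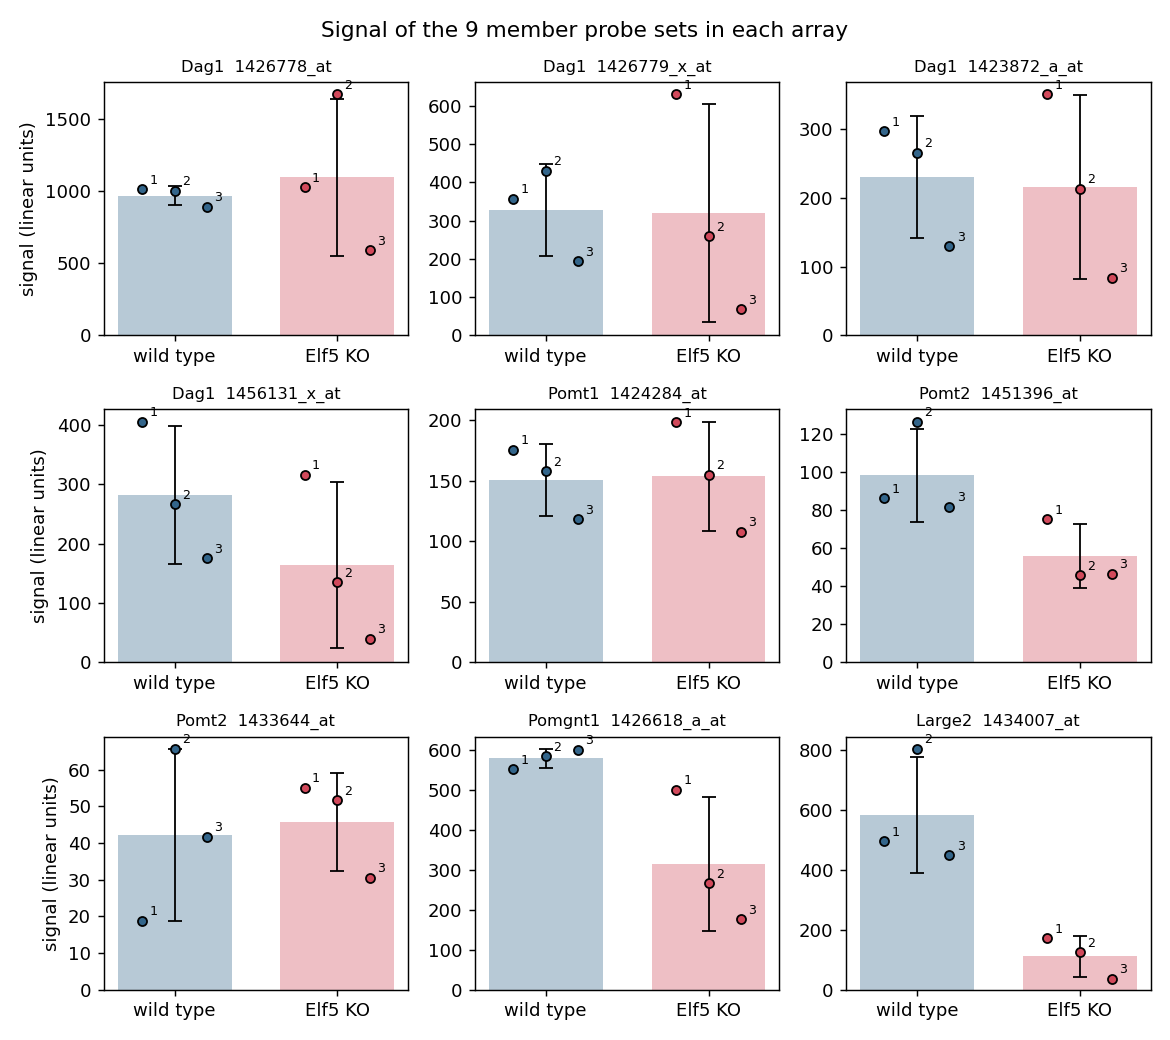
Signal in linear units (vertical axes, from 0, each panel with its own range) of the 9 member probe sets in wild-type and Elf5 KO arrays. Points are arrays with their replicate numbers, bars are group means and whiskers are the SD (n = 3); the KO points of Large2 lie between 36.6 and 171, below all wild-type points, while those of Dag1 probe set 1426778_at spread from 589 to 1673 around the wild-type values.

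The O-mannosyltransferase genes Pomt1 and Pomt2, whose products work only as a complex, did not behave alike at every probe set. Pomt1 had wild-type signals of 176, 158 and 118 and KO signals of 199, 155 and 108. The KO values spanned the wild-type range, and the difference was 0.01 ± 0.32 (SE). It was 0.38 in the low-ratio arrays.

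The brighter Pomt2 probe set, 1451396_at, had wild-type signals of 86.2, 126 and 81.6 and KO signals of 75.0, 45.8 and 46.5. All KO arrays lay below all wild-type arrays, although KO array 1 reached 91.9% of the lowest wild-type value. The difference was -0.67 ± 0.31 (SE) and -0.30 in the low-ratio arrays. The dimmer probe set, 1433644_at, had wild-type signals of 18.8, 65.7 and 41.7 and KO signals of 55.1, 51.6 and 30.5, with overlapping groups and a difference of 0.15 ± 0.41. Averaged over both probe sets, Pomt2 differed by -0.26. The lower Pomt2 signal was therefore seen at 1 of its 2 probe sets. The other had a mean signal of 43.9, near the cut of about 43.8 under which genes were left out. It is too dim to say much about a fall.

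Pomgnt1 varied least between wild-type arrays among the glycosyltransferases (SD of 0.059 on the log2 scale, n = 3). Its probe set, 1426618_a_at, had wild-type signals of 553, 585 and 601 (580 ± 24.3, SD, n = 3) and KO signals of 501, 267 and 176 (315 ± 168, SD, n = 3). KO array 1 lay just under the lowest wild-type array, at 90.6% of it, and the KO arrays with high Gapdh ratios lay far lower. The difference was -0.97 ± 0.38 (SE, limma adjusted p = 0.180), and it shrank to -0.20 in the low-ratio arrays. Without KO array 1 it was -1.35 (limma adjusted p = 0.0330). The KO arrays that set the difference were thus those with a high Gapdh ratio, whose part in it was not tested.

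Large2 showed the largest difference of the 5 genes. Its only probe set, 1434007_at, had wild-type signals of 496, 805 and 450 (584 ± 193, SD, n = 3). The KO signals were 171, 125 and 36.6 (111 ± 68.5, SD, n = 3). The highest KO value was 38.1% of the lowest wild-type value, and the KO mean was 19.0% of the wild-type mean. KO array 1, whose Gapdh ratio was the lowest of all 6 arrays, stood at 29.4% of the wild-type mean; KO array 3, with the highest ratio, was lower still, at 21.4% of KO array 1. Against the wild-type array of the same number, the KO arrays differed by -1.45, -2.54 and -3.15. Over the 6 arrays Large2 correlated with the log2 Gapdh ratio at r = -0.87, and Pomgnt1 at r = -0.98. The part of that ratio in the Large2 difference was not tested.

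Large2 fell by 2.38 ± 0.47 on the log2 scale (SE, limma adjusted p = 0.0487), the 18th largest of 5028 lower means. A limma fit that adds the replicate number as a block, called the paired fit here although the labels state no pairing, gave an adjusted p of 0.0125. The difference was -1.63 in the low-ratio arrays (adjusted p = 0.216) and -1.53 with the Gapdh ratio as a covariate (adjusted p = 0.206). The call lay just inside the threshold and was lost when any array but KO array 1 was left out: the adjusted p was 0.124, 0.218 and 0.151 without wild-type array 1, 2 or 3, and 0.129 and 0.0642 without KO array 2 or 3. Without KO array 1 it was 0.0168, and the direction was downward each time, which is fixed where groups do not overlap.

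**Figure D2:**
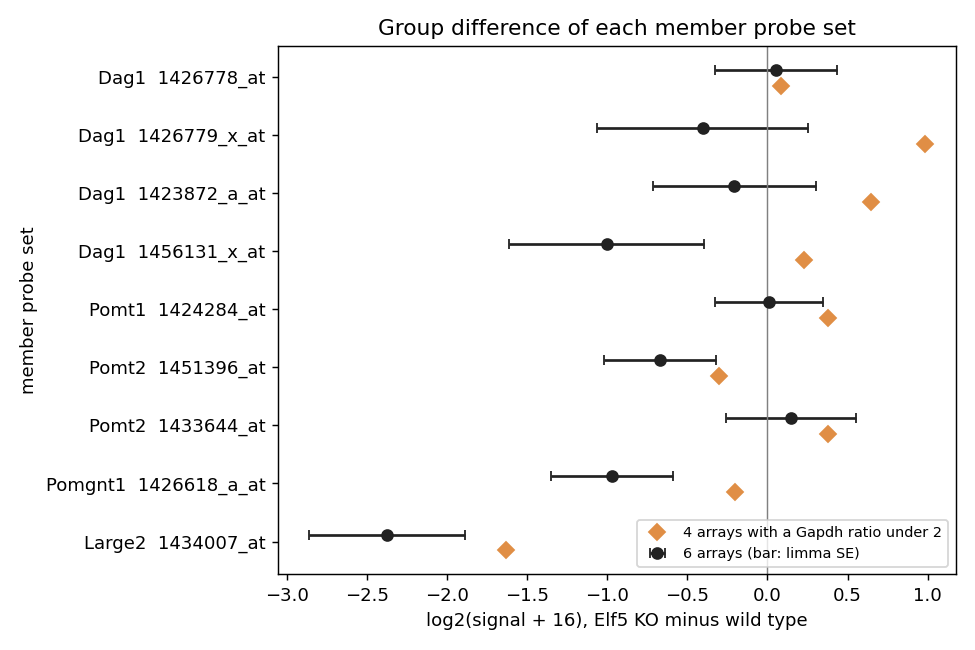
Difference of each of the 9 member probe sets between Elf5 KO and wild type on the log2(signal + 16) scale (horizontal axis), from a fit over every probe set with 1 gene and no filter. Black points with whiskers are all 6 arrays with limma's SE, and diamonds the 4 low-ratio arrays, which hold a single KO array. There Large2 moves from -2.38 to -1.63 and Pomgnt1 from -0.97 to -0.20, and 3 Dag1 probe sets change sign.

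**Figure D3:**
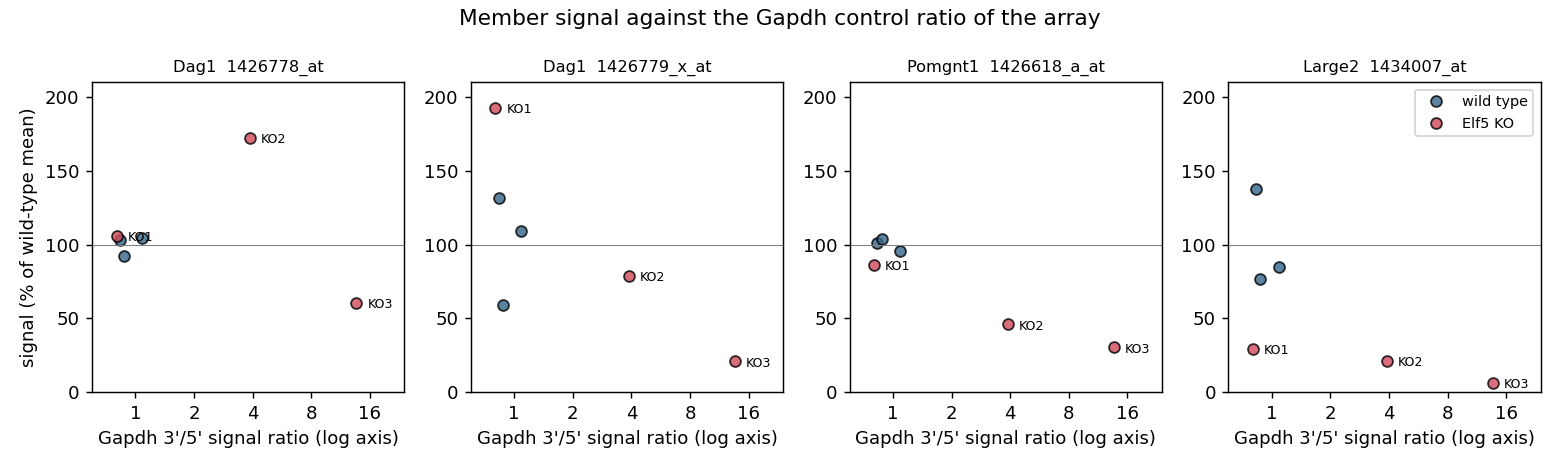
Signal of 2 Dag1 probe sets, Pomgnt1 and Large2 as a percentage of the wild-type mean (vertical axis, from 0) against the array's Gapdh 3'/5' ratio (horizontal log axis), 1 point per array. At ratios near 1, KO array 1 lies above all wild-type arrays for both Dag1 probe sets (at 106% and 193% of the wild-type mean), at 86.5% for Pomgnt1 and at 29.4% for Large2.

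The promoter windows of the members with lower KO values are shown because the disrupted gene encodes an ETS factor, a family that binds around the core GGAA. They come from RefSeq on GRCm38.p6, where 4 of the 5 members matched; Large2 has no entry in the table. Each runs 5′ to 3′ on the gene's strand from 250 bases before to 50 bases after a transcription start, and capitals mark every GGAA or, for the opposite strand, TTCC.
Pomgnt1 (chr4:116150268-116150567, + strand): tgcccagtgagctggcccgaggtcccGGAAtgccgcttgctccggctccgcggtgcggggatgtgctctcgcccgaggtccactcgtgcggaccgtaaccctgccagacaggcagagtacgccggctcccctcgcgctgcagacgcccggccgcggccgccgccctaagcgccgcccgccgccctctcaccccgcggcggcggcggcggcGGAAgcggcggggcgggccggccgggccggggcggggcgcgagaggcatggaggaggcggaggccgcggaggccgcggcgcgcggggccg
Pomt2 (chr12:87147853-87148152, - strand): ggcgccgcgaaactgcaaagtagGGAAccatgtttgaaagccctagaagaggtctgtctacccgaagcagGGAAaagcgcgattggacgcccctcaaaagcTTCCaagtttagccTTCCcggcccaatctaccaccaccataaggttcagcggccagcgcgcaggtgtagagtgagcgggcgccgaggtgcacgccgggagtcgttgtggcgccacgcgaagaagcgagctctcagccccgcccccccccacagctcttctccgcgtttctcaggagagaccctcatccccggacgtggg
For comparison, Dag1, which overlapped between the groups (chr9:108263909-108264208, - strand): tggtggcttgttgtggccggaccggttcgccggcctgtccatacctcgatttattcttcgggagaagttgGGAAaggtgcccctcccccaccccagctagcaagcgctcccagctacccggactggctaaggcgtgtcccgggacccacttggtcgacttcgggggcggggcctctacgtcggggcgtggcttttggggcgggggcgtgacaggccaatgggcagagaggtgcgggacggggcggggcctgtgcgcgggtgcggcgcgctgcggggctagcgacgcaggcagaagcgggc
The Pomgnt1 window holds 2 matches, that of Pomt2 holds 4 and that of Dag1 holds 1. Pomt1, which also overlapped between the groups, has a window that is not printed (chr2:32236390-32236689). It holds 2 matches, as many as the printed Pomgnt1 window. Pomgnt1 and Dag1 each have another start in the table, not printed, and the counts depend on the start: the window at the other Pomgnt1 start (chr4:116151181-116151480) holds 5 matches and that at the other Dag1 start (chr9:108263766-108264065) holds 0. The core is common: 96.0% of 32851 windows of 300 bases held it on either strand. The longer CCGGAA (or TTCCGG), which contains the core, was found once in the printed Pomgnt1 window. It was in none of the other windows named here and in 14.9% of all windows. CCGGAAGT (or ACTTCCGG), a longer form again, was in none of the windows named here and in 3.89% of all windows. A match of these letters is a description of the sequence and no measurement of binding.

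The remaining genes of the pathway were taken from 8 lists of 75 genes, drawn up by their known roles but with earlier results of these arrays known, so that the counts below are a description; 56 were tested. None passed limma's threshold over all genes, although 17 (30.4%) had an unadjusted p under 0.05, as did 21.8% of all genes tested. Higher and lower means were nearly balanced, at 30 and 26, and the median difference was 0.04, against 0.06 over all genes. Wholly separate groups were found for 4 genes with lower KO values (7.14%, against 10.6% of all genes) and for 12 with higher ones (21.4%, against 16.7%). In the paired fit, which called 12.2% of all genes, 7 of the 56 rose and 2 fell, against 7.7% and 4.53% of all genes.

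Other enzymes and kinases of the dystroglycan glycan showed no common direction. Of 9 listed genes 5 were tested, 3 with a higher and 2 with a lower mean, and the median was 0.09. Pomgnt2, which extends O-mannose on the branch that Large2 later elongates, differed by -0.80 ± 0.39 (SE). Wild-type signals were 135 to 239 and KO signals 159, 72.4 and 59.4, and it differed by -0.07 in the low-ratio arrays and by 0.04 at its other probe set. Pomk, the kinase that phosphorylates the mannose, was higher by 0.78 ± 0.38, and by 0.02 in the low-ratio arrays; its other probe sets differed by -0.23 and 0.66. B3galnt2, which adds N-acetylgalactosamine, differed by 0.49 ± 0.51, whereas its 3 other probe sets differed by -0.17 to -0.14 and the mean of all of them by 0.0084. B4gat1 and Rxylt1, which prime the chain with glucuronic acid and xylose before Large2 acts, differed by -0.32 ± 0.45 and 0.09 ± 0.29; both lie outside the rule for named genes and were chosen after their values were seen. In the low-ratio arrays, which hold a single KO array, the lowest of these 5 genes was B3galnt2, at -0.55. Large2 was chosen with its fall known, so nothing is read from its larger difference.

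Of the genes that supply activated mannose, 11 were tested and none passed. Lower means were found for 9 of the 11, against 5028 of 10916 over all genes, a count that was not tested. Their median was -0.62, and 0.02 when taken over the low-ratio arrays. Gmppb, which makes GDP-mannose, had wild-type signals of 465, 841 and 501 and KO signals of 337, 224 and 173, so that all KO arrays lay below the wild-type ones. Its difference was -1.24 ± 0.35 (SE, limma adjusted p = 0.0970; 0.0430 in the paired fit) and -0.76 in the low-ratio arrays. Mpi, which makes mannose phosphate from fructose phosphate, differed by -1.43 ± 0.52, and by -0.42 in the low-ratio arrays. Pmm1, a phosphomannomutase, went the other way, with wild-type signals of 127 to 134 and KO signals of 337, 327 and 163 (0.93 ± 0.33). It differed by 1.27 in the low-ratio arrays and by 0.23 at its other probe set.

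Enzymes that attach O-mannose to other proteins were tested as 4 genes, all with a higher mean and a median of 0.19. The mannosyltransferases Tmtc1, Tmtc3 and Tmtc4 differed by 0.60 ± 0.28, 0.08 ± 0.33 and 0.29 ± 0.28 (SE). For each of the 3 genes another probe set had the opposite sign, the low-ratio differences were 0.53, -0.21 and 0.23, and none passed in either fit.

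The laminin G ligands of dystroglycan contained both higher and lower members: 7 of 11 had a higher mean. The median was 0.60, falling to 0.10 over the low-ratio arrays. Lama5, the laminin alpha chain of epithelial basement membranes, had wild-type signals of 479, 480 and 421 and KO signals of 241, 139 and 123. The groups were well apart, and the difference was -1.43 ± 0.32 (SE, limma adjusted p = 0.0610; 0.0196 in the paired fit), or -0.89 in the low-ratio arrays. Its 2 other probe sets differed by only -0.16 and -0.10.

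Slit2 and Slit3, secreted guidance proteins with a laminin G domain, were higher in every KO array at the probe set that stands for the gene. Slit3 signals were 33.0 to 63.5 (wild type) and 140 to 172 (KO), a difference of 1.41 ± 0.30 (SE, limma adjusted p = 0.0581; 0.0171 in the paired fit). Slit2 differed by 1.02 ± 0.30 (limma adjusted p = 0.0990; 0.0433 in the paired fit). In the low-ratio arrays they differed by 1.25 and 0.84. Slit3 has no other probe set, but the 2 others of Slit2 differed by -0.21 and 0.36, and the mean of its probe sets by 0.39 (limma adjusted p = 0.335). Lama2, a laminin alpha chain of muscle and nerve, was named after its value was seen, as the remaining gene of this list that passed in the paired fit (adjusted p = 0.0488). Wild-type signals were 181 to 234 and KO signals 237, 568 and 1009, and its difference of 1.28 was 0.20 in the low-ratio arrays.

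Of the laminin beta and gamma chains 4 were tested, 2 higher and 2 lower. Lamb1 had wild-type signals of 484 to 721 and KO signals of 851, 1167 and 2299 (1.20 ± 0.39 SE, limma adjusted p = 0.129; 0.0294 in the paired fit). The difference was 0.58 in the low-ratio arrays and 0.53 for the mean of its probe sets, of which the 3 others differed by -0.31 to 1.20. Lamb3, a chain of the laminin under hemidesmosomes, differed by -0.68 ± 0.39 and Lamb2 by 0.35 ± 0.31, or by -0.84 and 0.23 in the low-ratio arrays. All 6 fibroblast markers had a higher mean in the KO, and 1 of the 6 passed limma's threshold. Their summed signals overlapped, at 10733 to 17379 in wild type and 15323 to 31192 in the KO. Within the KO the sum went down from array 1 to array 3 (31192, 24507 and 15323), whereas Lamb1 went up. The part of fibroblasts in the ligand values was not tested.

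Within the dystrophin glycoprotein complex, which holds dystroglycan in the membrane, 5 of 8 tested genes had a higher mean (median 0.19). Sspn, the membrane protein sarcospan, had wild-type signals of 139 to 170 and KO signals of 356, 414 and 269 (1.07 ± 0.29 SE, limma adjusted p = 0.0879; 0.0436 in the paired fit). Its difference was 1.13 in the low-ratio arrays, although a second probe set differed by -0.09. Sgcb, a sarcoglycan, was higher by 0.70 ± 0.31, and by 0.23 in the low-ratio arrays; its 2 other probe sets were higher by 0.33 and 1.35. Utrn, the dystrophin homologue that binds beta-dystroglycan in epithelia, was higher by 0.74 ± 0.33 and by 0.15 in the low-ratio arrays, but 2 other probe sets differed by -0.44 and -1.14. Skeletal muscle markers, all 7 of them, had a higher mean in the KO, with summed signals of 359 to 4379 in wild type and 1825 to 8101 in the KO; what they contribute to these genes was not tested.

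Other laminin receptors did not pass in either fit, with 3 of 7 higher and a median of -0.46. The integrin subunit Itga6 ranged from 1728 to 3321 (wild type) and from 1001 to 1896 (KO), a difference of -0.76 ± 0.37 (SE). In the low-ratio arrays it differed by -1.35, and its other probe set by -1.34 over all arrays. Its partner Itgb1 differed by -1.32 ± 0.77, with 826, 1224 and 86.2 in KO arrays 1, 2 and 3, and by -0.50 in the low-ratio arrays; its 5 other probe sets differed by -0.88 to 0.04. Itga7, the muscle laminin receptor, was higher by 0.73 ± 0.35, and by 0.89 in the low-ratio arrays.

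Of 6 proteases that can mature or shed dystroglycan, 4 had a higher and 2 a lower mean. Pcsk5, a proprotein convertase, had wild-type signals of 53.6 to 66.7 and KO signals of 161, 196 and 470 (1.82 ± 0.39 SE, limma adjusted p = 0.0594; 0.0184 in the paired fit). Mmp2, a gelatinase that cuts beta-dystroglycan, had wild-type signals of 496 to 674 and KO signals of 1736, 1410 and 1162 (1.29 ± 0.29 SE, limma adjusted p = 0.0613; 0.0182 in the paired fit). Neither shrank to near 0 in the low-ratio arrays, where they differed by 1.25 and 1.58. The 4 other Pcsk5 probe sets differed by 0.12 to 1.22, and the other one of Mmp2 by 1.59. Pcsk7, another convertase, was lower in all KO arrays, with a difference of -0.75 ± 0.29, and -0.66 in the low-ratio arrays. Mmp2 is a product of fibroblasts. As given above, all 6 fibroblast markers had higher means in the KO and 1 passed limma's threshold, but the summed signals overlapped. The part of fibroblasts in the Mmp2 values was not tested.

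**Figure D4:**
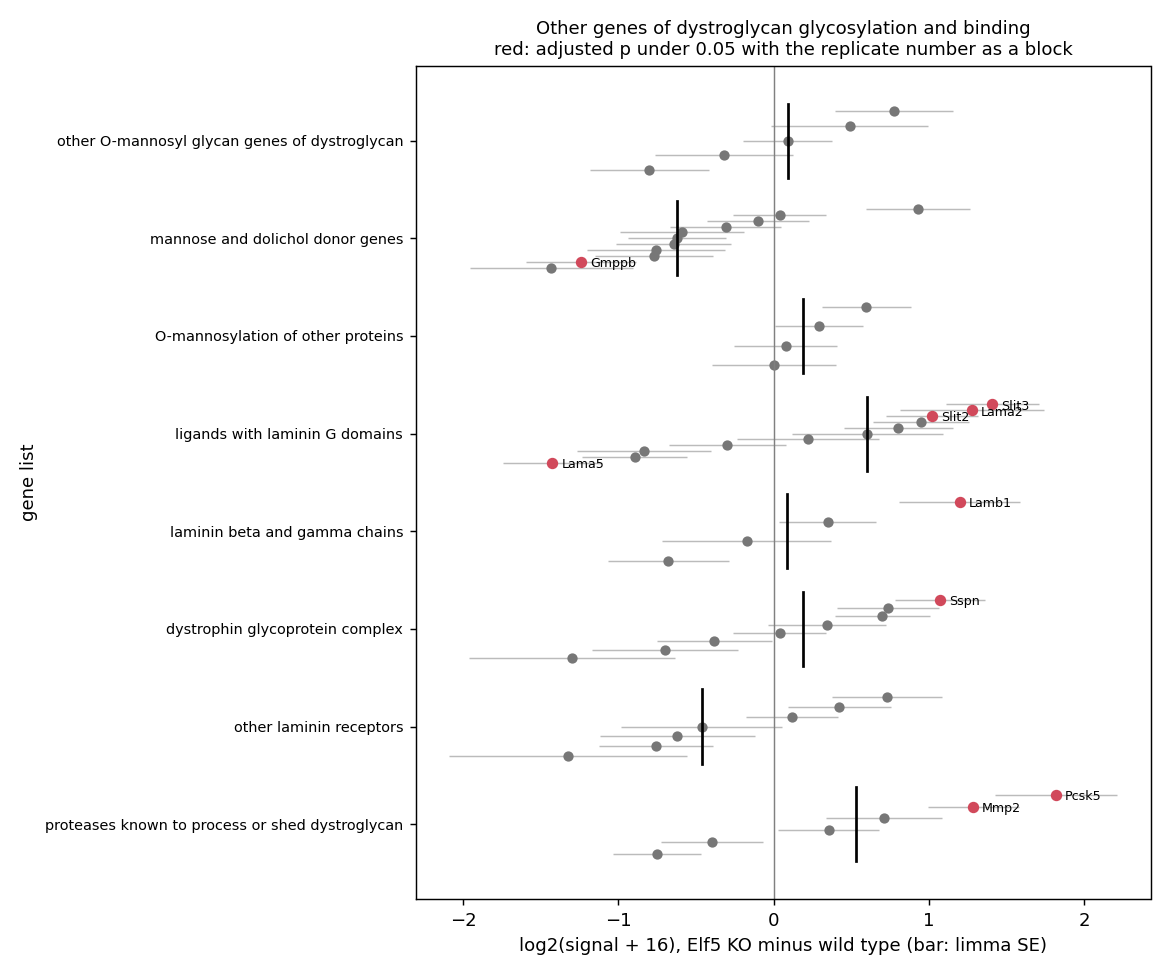
Differences between Elf5 KO and wild type on the log2(signal + 16) scale (horizontal axis) for the 56 tested genes of the 8 lists, 1 point per gene with limma's SE from the unpaired fit. Vertical black lines are list medians, and the 9 genes in red passed with the replicate number as a block, 7 of them higher and 2 lower.

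By Pearson correlation over the 6 arrays, the tested genes most like Large2 were Nol6 and Vstm5 (r = 0.997 and 0.996), Pex26 and Rfk (both r = 0.993) and Srprb (r = 0.991). All 5 were lower in the KO, with differences of -0.88 to -1.97. Rfk, for example, which makes flavin mononucleotide, had wild-type signals of 2298, 2502 and 2233 and KO signals of 1294, 1138 and 671. Elf5 itself ranked 534th at its brighter probe set, with r = 0.902, and its other probe set had r = 0.942. For Dag1 they were Col4a6 (r = 0.985), Sidt1 (r = 0.983), Dgka (r = 0.977), Lclat1 (r = 0.977) and Med17 (r = 0.975), with differences of -0.0023 to 0.12, each highest in KO array 2 and lowest in KO array 3. The genes were picked because their values follow those of Large2 or Dag1 over these arrays. Their lower KO values, or their shared order of arrays, therefore come with the choice, and nothing is read from them. These likenesses describe 6 arrays that share the 2 groups and their RNA quality, and were not tested.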

How the data were processed

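The deposited table holds intensity values, linear signals for 45101 probe sets, and the submitters' processing notes name MAS5 and affy for the authors' processing, without versions. No genome build is named in the sources used here. Each array was scaled to a trimmed mean of 150 (2% trimmed at each end), as the values show. Detection calls were not used. Precision is limited by the number of arrays.

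Gene names came from the platform annotation; 34945 had 1 gene and 932 several, which were left unnamed. For a gene, the probe set with the highest mean log2(signal + 16) stood. Genes under the 40th percentile of that mean (signal of about 43.8) were left out, which kept 10916; all 5 members passed through their brightest probe set. The group comparison used limma 3.58.1 under R 4.3.3 (lmFit, eBayes with trend, Benjamini-Hochberg over all genes, threshold 0.05), tested on simulated data. Single probe sets were fitted over all 34945 without a filter. That fit called 0 probe sets.

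Members and lists were chosen with earlier results of these data known. Named genes are Elf5, the members, 3 genes per list (those of smallest p), and the 5 genes most like Large2 and Dag1. Listed genes with no probe set of their own were not analysed here. Deviations from the group means correlated at 0.459, 0.336 and 0.291 between arrays with the same replicate number, all over 0.1. A fit with that number as a block (paired fit) therefore stands beside calls it changes. The highest value between arrays of different numbers, 0.149, was over 0.1 too. The labels state no pairing. Median signal fell with the number in both groups (41.3, 38.8 and 34.3 in wild type, 36.1, 31.6 and 24.6 in the KO), so the block need not stand for paired animals. Alternatives covered the pseudocount, filter, scaling, choice of probe set, variance trend, block, Gapdh ratio and single arrays.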

Additional observations from a re-analysis of the deposited data

How the results depend on the processing

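Large2 kept its direction under all 19 alternatives, from -2.75 to -1.53, and passed in 7 of them. It missed the threshold with a pseudocount of 1 (-2.59, adjusted p = 0.0623), and, at -2.38, with no filter (0.0697), the mean of probe sets (0.0552), every probe set tested singly (0.124) and, added after seeing the data, the mean of linear signals for probe set choice and filter (0.0524). It also missed it with the Gapdh ratio as a covariate (-1.53, 0.206) and in the low-ratio arrays (-1.63, 0.216). In those 7 settings 0 members were called, against 1. Leaving out single arrays gave 0 to 2 members, the 2 being Large2 and Pomgnt1 without KO array 1, with Large2 at -2.75 to -1.83, Pomgnt1 at -1.35 to -0.64, Pomt2 at -0.85 to -0.50, Pomt1 at -0.18 to 0.22 and Dag1 at -0.31 to 0.43. Dag1 turned to -0.39 with the mean of probe sets.

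Over all genes 135 were called (91.1% higher). The count was 85 with a pseudocount of 1, 56 with no filter, 273 with median scaling, 69 with the mean of probe sets, 1335 with the replicate block (63.0% higher), and 0 with every probe set tested, the Gapdh covariate or the low-ratio arrays, where 3332, 1112 and 1013 had an unadjusted p under 0.05. Without 1 array it was 0 to 1206, the highest without KO array 1. Of the other pathway genes 0 were called, but 3 with median scaling (Mmp2, Pcsk5 and Slit3), 9 with the replicate block and 0 to 7 without 1 array, the 7 without KO array 1. Median scaling moved the median of all genes by 0.30, and Pomgnt1 at -0.66 and Large2 at -2.10 there are to be read against that shift.

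Other signs turned as follows. B3galnt2 was -0.45 with the Gapdh covariate, -0.55 in the low-ratio arrays and -0.060 to 1.01 without 1 array. Tmtc3 was -0.28 with the mean of probe sets, -0.21 in the low-ratio arrays and -0.14 to 0.26 without 1 array. With the mean of probe sets Tmtc4 was -0.18 and Utrn -0.28, and Itgb1 was 0.021 with the Gapdh covariate. The cause of these changes was not tested.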
